A study of Homo sapiens with 28 samples.

Results

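The 38 genes described here are the widely used cell cycle and proliferation genes of human tumours, taken as a fixed list of symbols. The rule took them by name, out of 19775 genes that had a probe set with a single gene symbol. No cut-off on a measured value selected a gene, but the list was chosen with earlier results of these data known. By role the list holds 9 genes of replication licensing and the replication fork, 4 of DNA synthesis and nucleotide supply, 7 cyclins and their kinases, 2 transcription factors, 7 mitotic kinases, checkpoint genes and survivin, 2 genes of the anaphase-promoting complex, 6 of the spindle and of chromosome structure, and MKI67. All 38 were measured and all 38 lay above the limit for testing on each of the 28 arrays, so none was lost to the filter on dim genes.

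The tumours were subcutaneous xenografts of the human clear cell renal carcinoma lines 786-O and A498, both deficient in the tumour suppressor VHL, grown in female athymic nude/beige mice that were 6 to 8 weeks old at injection. Sorafenib, an inhibitor of VEGF receptors, PDGF receptors and RAF kinases, was dosed at 80 mg/kg, while the dose of sunitinib, which acts on KIT and on the receptors of VEGF and PDGF, was 53.6 mg/kg, each by gavage on 6 of every 7 days, starting at a tumour diameter of 12 mm, and tumours were excised either at 12 mm or at the size limit of 20 mm. Resistant tumours are those so labelled, and the 6 groups were 5 resistant and 5 untreated tumours of the 786-O sorafenib arm, 4 resistant and 5 untreated 786-O tumours of the sunitinib arm, and 5 resistant and 4 untreated A498 tumours of a sorafenib arm. The title codes of both groups of the 786-O sorafenib arm begin with 33 and those of every other group with 35, and what the codes mean is not given. The labels give neither the size nor the mouse of origin of single tumours, so the p-values measure the spread between these tumours.

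RNA was measured on human HG-U133 Plus 2.0 arrays, to which RNA of the mouse host can also bind. Signals are the deposited linear values, scaled to equal trimmed means (500.06 to 500.07), and differences are on the log2(signal + 16) scale. The lowest and highest median signal of an array were 79.7 and 99.4. Of 14 renal carcinoma markers 11 were tested, and PAX8, the kidney lineage factor, had signals between 1915 and 5262 over all tumours. The endothelial markers CDH5, KDR and VWF lay below the filter, so vessel content could be followed with only 6 of 16 endothelial markers.

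Cells copy their DNA once and divide once per cycle. The E2F factors, held back by the retinoblastoma protein until cyclin D and cyclin E kinases release them, switch on the genes of replication licensing and nucleotide supply at the border of G1 and S phase. FOXM1 and the MuvB complex switch on the genes of spindle assembly, chromosome segregation and mitotic exit later, in G2 and mitosis, so in bulk tissue these genes report mainly how large a share of the cells is cycling. In bulk tumours fewer cycling cells and less RNA of these genes per cell cannot be told apart.

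The promoters of the list hold the letters by which these 2 waves of transcription are usually recognised. RefSeq promoter windows, from 250 bases before to 50 bases after the start (assembly GRCh38.p14), were found for 28 of the 38 genes. Both strands were searched for the letters TTTGAA (the cell cycle homology region bound by the MuvB complex), CCAAT (the NF-Y box), and TTTCCCGC, TTTGGCGC, TTTCGCGC or TTTGCCGC (E2F sites), where matches of different motifs may overlap. E2F letters stood in 8 of the 11 promoters of the replication and DNA synthesis genes (72.7%) and in 0 of the 10 of mitotic genes, against 5.09% of the promoters of 11113 genes tested and 3.33% of all 27305 windows. TTTGAA stood in 7 of the 10 mitotic promoters and in 1 of the 11 replication promoters (9.09%), against 10.4% of the tested genes and 15.4% of all windows. CCAAT was found in 24 of the 28 promoters (85.7%), against 36.5% of the tested genes and 35.7% of all windows. A match of letters is a description of the window and not a bound site.

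Windows are shown 5′ to 3′ on the gene's own strand for 4 genes of the list as examples of the motifs, with matched letters in capitals: MCM6 (chr2:135876394-135876693, minus strand) as an E2F type, MKI67 (chr10:128126374-128126673, minus strand) and CDC20 (chr1:43358731-43359030, plus strand) with TTTGAA beside CCAAT, and KIF20A (chr5:138178862-138179161, plus strand) with CCAAT on the other strand alone. In MCM6 each long capital run is a pair of overlapping E2F matches on opposite strands, and in MKI67 the second TTTGAA overlaps a CCAAT match of the other strand.
MCM6: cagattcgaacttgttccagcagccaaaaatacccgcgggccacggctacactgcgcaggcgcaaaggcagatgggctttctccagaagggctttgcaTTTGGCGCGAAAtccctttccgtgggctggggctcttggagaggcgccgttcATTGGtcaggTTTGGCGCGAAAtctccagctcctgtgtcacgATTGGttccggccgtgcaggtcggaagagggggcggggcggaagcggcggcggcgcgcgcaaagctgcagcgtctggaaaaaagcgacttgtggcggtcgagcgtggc
MKI67: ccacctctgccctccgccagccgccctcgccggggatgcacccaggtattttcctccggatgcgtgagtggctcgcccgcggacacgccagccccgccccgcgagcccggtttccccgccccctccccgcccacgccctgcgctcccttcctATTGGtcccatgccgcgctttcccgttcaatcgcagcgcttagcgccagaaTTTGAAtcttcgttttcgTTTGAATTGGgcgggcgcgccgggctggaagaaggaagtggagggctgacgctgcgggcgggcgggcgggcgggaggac
CDC20: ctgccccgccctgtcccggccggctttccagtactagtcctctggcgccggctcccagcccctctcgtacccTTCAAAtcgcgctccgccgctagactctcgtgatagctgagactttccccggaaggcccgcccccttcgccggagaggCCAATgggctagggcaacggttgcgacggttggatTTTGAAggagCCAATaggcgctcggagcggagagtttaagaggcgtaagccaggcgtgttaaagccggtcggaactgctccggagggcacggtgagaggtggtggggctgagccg
KIF20A: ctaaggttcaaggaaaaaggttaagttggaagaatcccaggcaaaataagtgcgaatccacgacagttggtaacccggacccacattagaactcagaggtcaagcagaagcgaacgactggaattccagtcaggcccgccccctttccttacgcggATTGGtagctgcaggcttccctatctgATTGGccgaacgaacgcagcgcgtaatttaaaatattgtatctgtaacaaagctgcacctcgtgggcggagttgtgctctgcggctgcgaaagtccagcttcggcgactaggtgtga

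Averaged over the 38 genes, resistant tumours had almost the same level as untreated tumours in each arm. The mean log2 level was 10.94 ± 0.15 in sorafenib-resistant 786-O tumours and 10.93 ± 0.14 in their untreated tumours (SD, n = 5 each), 10.73 ± 0.06 in sunitinib-resistant 786-O tumours and 10.71 ± 0.12 in their untreated tumours (SD, n = 4 and 5), and 10.65 ± 0.23 in resistant A498 tumours and 10.60 ± 0.18 in untreated A498 tumours (SD, n = 5 and 4). The differences of 0.02, 0.02 and 0.06 were small beside the range between tumours of 1 group, which ran from 0.12 in the sunitinib-resistant group to 0.50 in the resistant A498 group. Resistant and untreated tumours overlapped in every arm. These means describe a list chosen by name and carry no test.

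**Figure D1:**
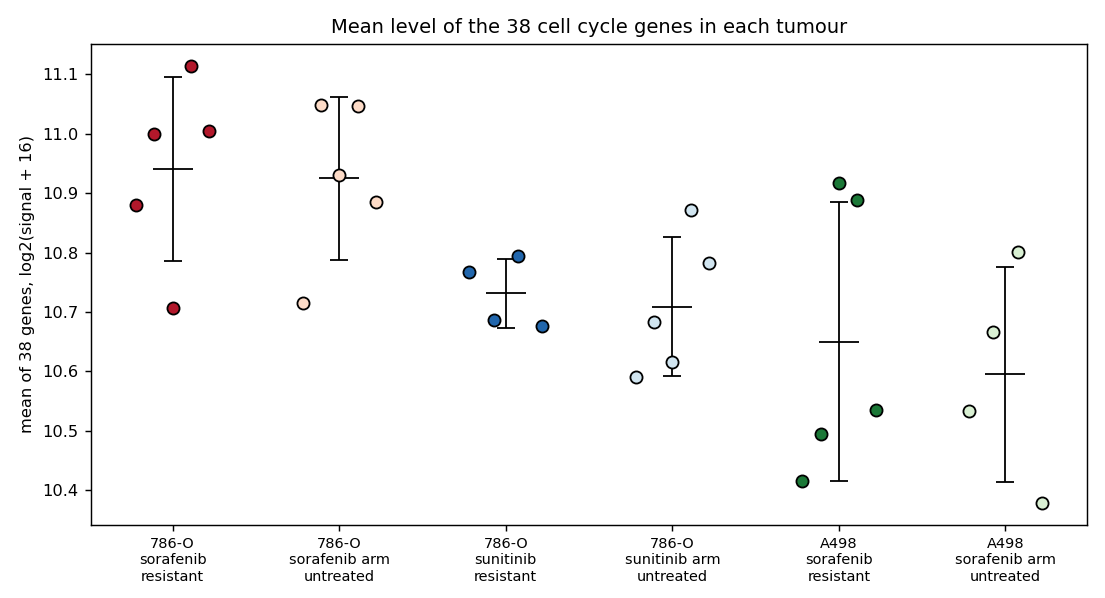
Mean level of the 38 cell cycle genes in each tumour (1 point per tumour; y axis, mean of log2(signal + 16)), with the group mean and SD as bars. Resistant and untreated tumours of an arm overlap, with group means 10.94 and 10.93, 10.73 and 10.71, and 10.65 and 10.60, and the 786-O tumours of the sorafenib arm lie above those of the sunitinib arm on average.

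Gene by gene, the comparison of resistant with untreated tumours found few changes. In the 786-O sorafenib arm 2 of the 38 genes rose and 1 fell by limma at a Benjamini-Hochberg adjusted p under 0.05, or 7.89% of the list, where 15.2% of all 13808 genes tested were called (5.97% higher and 9.18% lower). In the 786-O sunitinib arm 0 were called, where 5.06% of all genes were, and in the A498 arm 0, where 6.34% of all genes were. At an unadjusted p under 0.05 limma gave 5, 2 and 0 of the 38 genes, against 28.4%, 18.7% and 21% of all genes. The median difference over the list was 0.01, 0.03 and 0.06, beside -0.05, -0.01 and 0.03 over all genes tested. The 95% intervals bound what these group sizes could miss: they lay within 1 log2 unit either way, a 2-fold change, for 37, 38 and 38 of the genes, and within 0.5 units for 31, 28 and 29.

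**Figure D2:**
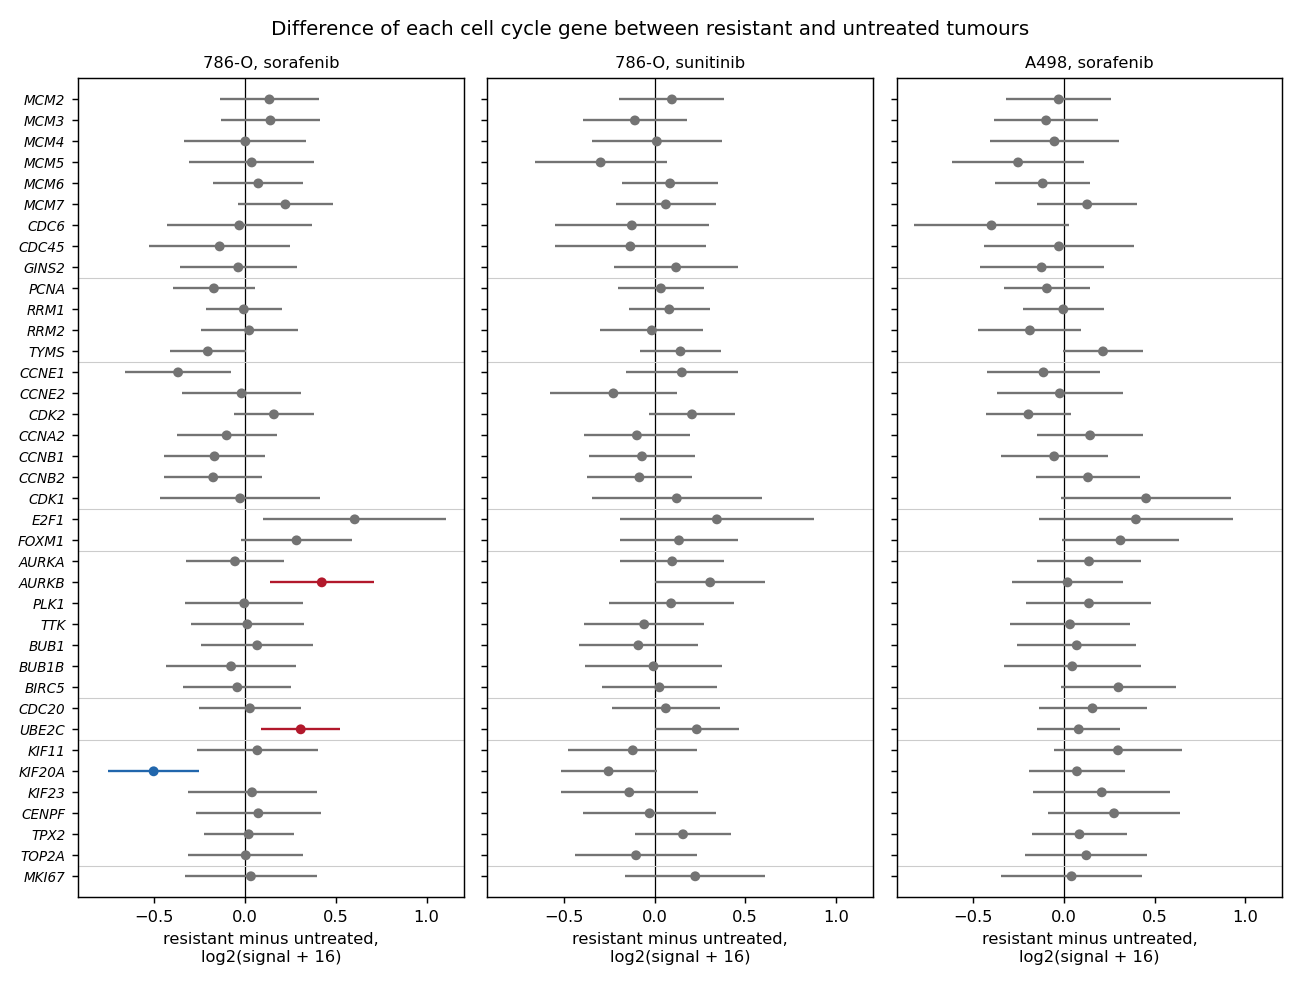
Difference of each cell cycle gene between resistant and untreated tumours in the 3 arms (x axis, log2(signal + 16); points, limma estimates; bars, 95% intervals; red, called higher; blue, called lower; grey, not called; genes from top to bottom by role). AURKB (0.42) and UBE2C (0.31) rose and KIF20A (-0.50) fell in the 786-O sorafenib arm, and no gene was called in the other arms.

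MKI67 encodes the Ki-67 antigen, the usual stain for cycling cells. Its signal was 1357, 1672, 1398, 1957 and 2173 in the sorafenib-resistant 786-O tumours, against 1390.1, 2032, 2238, 1449 and 1318 in their untreated tumours. It was 1177, 1064, 1451 and 1261 in the sunitinib-resistant tumours, against 961, 944, 1125, 1062 and 1184 in the untreated tumours of that arm. In A498 it was 812, 686, 1068, 1256 and 804 in resistant tumours, against 967, 924, 1059 and 624.8 in untreated ones. The groups overlapped in every arm, and the differences were 0.03 ± 0.18, 0.22 ± 0.19 and 0.04 ± 0.19 (limma estimate ± SE, adjusted p = 0.934, 0.572 and 0.936). TOP2A is the topoisomerase that untangles chromosomes before division, and its signals were 2941, 3179.5, 2705, 4366 and 4618 in sorafenib-resistant 786-O tumours, against 2828, 4030.2, 3136, 4507 and 3130.1 in untreated ones, and its differences were 0.00 ± 0.15, -0.10 ± 0.16 and 0.12 ± 0.16 in the 3 arms (limma adjusted p = 0.993, 0.797 and 0.726). Its lowest and highest signals were 2564 and 3145 in sunitinib-resistant tumours, against 2598 and 3807 in untreated tumours, and 2915 and 3915 in resistant A498 tumours, against 2611 and 3790 in untreated A498 tumours.

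None of the genes that open replication was called in any arm. MCM2, a subunit of the helicase loaded at origins, had signals of 2013, 2464, 1996, 1966 and 1816 in the sorafenib-resistant 786-O tumours, against 1675, 2047, 2126, 2105 and 1443 in the untreated ones. Its groups overlapped, as they did in the sunitinib arm, at 1747, 1500.3, 1838 and 1504 in resistant and 1527, 1389, 1353, 1932 and 1533 in untreated tumours. In A498 MCM2 stood at 1227, 1116, 1658, 1787 and 1382 in resistant and 1384, 1659, 1427 and 1316 in untreated tumours, again with overlap. The 3 differences were 0.13 ± 0.13, 0.10 ± 0.14 and -0.03 ± 0.14 (limma adjusted p = 0.549, 0.777 and 0.941). The other 8 genes of licensing and the fork (MCM3 to MCM7, CDC6, which loads the helicase, CDC45 and GINS2, which start it) lay between -0.14 and 0.22, between -0.30 and 0.12, and between -0.40 and 0.13 in the 3 arms. CDC6 in A498, at the low end of that range, had an adjusted p of 0.274 by limma. In A498 1 of the 9 licensing genes, MCM7, lay above zero.

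PCNA, the sliding clamp of the DNA polymerases, had signals of 5061, 5682, 5224, 5296 and 5512 in sorafenib-resistant 786-O tumours, against 5418, 6339, 5062, 6750.5 and 6789 in untreated tumours. In the sunitinib arm they were 5639, 5906, 5386 and 5383 in resistant tumours, against 5092, 4617, 5754, 6309.7 and 5582 in untreated tumours, and in A498 4403, 4618, 5731, 5159.9 and 3624 in resistant tumours, against 4352, 5583, 4876 and 5139 in untreated tumours. The untreated tumours spread more widely than the resistant ones in both 786-O arms and the groups overlapped throughout, with differences of -0.17 ± 0.11, 0.04 ± 0.12 and -0.09 ± 0.12 (limma adjusted p = 0.320, 0.916 and 0.700). RRM1 and RRM2, the subunits of ribonucleotide reductase, and TYMS, the thymidylate synthase, lay between -0.21 and 0.21 over the 3 arms and were not called. Other probe sets of the same genes did not all give that result. A second TYMS probe set fell in the 786-O sorafenib arm (-0.45 ± 0.13, limma adjusted p = 0.0238 over all probe sets), where the TYMS probe set used gave -0.21 ± 0.10. A second RRM2 probe set fell in A498 (-0.82 ± 0.12, adjusted p = 0.0003355), where the RRM2 probe set used gave -0.19 ± 0.14 (adjusted p = 0.470).

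E2F1, the factor that opens S phase, had signals of 522, 570.3, 427, 605 and 446 in sorafenib-resistant 786-O tumours, against 278, 333, 362, 342 and 339 in untreated ones. All 5 resistant tumours lay above all 5 untreated tumours, the only gene of the 38 without overlap in this arm, where 5.08% of all genes tested lay wholly above. The difference of 0.60 ± 0.24, a 1.52-fold higher level, did not pass the threshold (limma adjusted p = 0.0979). It passed when the arrays of this arm alone set the spread (adjusted p = 0.00843), and when both untreated 786-O sets were pooled (0.69, adjusted p = 0.0211). Pooling adds the untreated tumours of the sunitinib arm, whose means were lower for 36 of the 38 genes, E2F1 among them. That setting therefore mixes the offset between the arms into the difference. In the sunitinib arm E2F1 stood at 328, 529.5, 443 and 245 in resistant tumours, against 283, 439, 250.1, 222 and 291 in untreated tumours, and in A498 at 208, 229.9, 281, 388 and 133 in resistant tumours, against 240.3, 263, 134 and 105 in untreated tumours. These groups overlapped, with differences of 0.34 ± 0.26 and 0.40 ± 0.26 (limma adjusted p = 0.518 and 0.404). A second E2F1 probe set gave 0.15 ± 0.17, 0.24 ± 0.18 and -0.11 ± 0.18 in the 3 arms, also without a call. FOXM1, the factor of the G2 and mitotic genes, lay above zero in each arm too, at 0.28 ± 0.15, 0.13 ± 0.16 and 0.31 ± 0.16, without a call (limma adjusted p = 0.212, 0.705 and 0.259). Each arm had its own untreated tumours, so no control tumour is shared between these values. Other genes of the list, such as UBE2C, AURKB, CDC20 and MKI67, also lay above zero in each arm. CCNB1 lay below zero in each. The share of all genes tested on the same side of zero in each arm was not counted.

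Among the cyclins, CCNE1, the G1 to S cyclin, came nearest to a fall in the 786-O sorafenib arm. Its signal was 339.5, 259.6, 243, 241 and 211 in resistant tumours, against 338, 323, 272, 340.4 and 417 in untreated ones, with 1 resistant tumour inside the untreated range. The difference was -0.37 ± 0.14 (limma adjusted p = 0.0800). It passed without resistant replicate 1 (-0.47, adjusted p = 0.0287) and without untreated replicate 3 (-0.44, adjusted p = 0.0468). Under sunitinib CCNE1 differed by 0.15 ± 0.15 (adjusted p = 0.649) and in A498 by -0.11 ± 0.15 (adjusted p = 0.727). CCNB1, the main mitotic cyclin, had signals of 2853, 2634, 2235, 3435 and 3496 in sorafenib-resistant 786-O tumours, against 2666, 3615, 2740.4, 3778 and 3637 in untreated ones, 3441, 2381, 2899.9 and 2658 in sunitinib-resistant tumours, against 2657, 2565, 2891, 3541 and 3247 in the untreated tumours of that arm, and 4503, 4250, 5461, 4637 and 3859.6 in resistant A498 tumours, against 4819, 4795, 4916 and 4244 in untreated A498 tumours. All 3 pairs overlapped, and CCNB1 differed by -0.17 ± 0.13, -0.07 ± 0.14 and -0.05 ± 0.14 (limma adjusted p = 0.443, 0.849 and 0.881).

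CDK1, the kinase that cyclin B switches on to start mitosis, was the most variable of the list after E2F1. It had signals of 7778, 7529, 4004, 6874 and 6906 in sorafenib-resistant 786-O tumours, against 5962, 6904, 5504, 8401 and 6434 in untreated ones. Under sunitinib CDK1 stood at 7594, 6965, 7788 and 5398 in resistant tumours, against 4595, 6032, 6485, 8772 and 6328 in untreated tumours, and in A498 at 3646, 4861, 8362, 7610.1 and 5474 in resistant tumours, against 3405, 4547, 5559 and 3558 in untreated tumours. The third sorafenib-resistant 786-O tumour and the first resistant A498 tumour were low, resistant A498 replicates 3 and 4 high, and all pairs of groups overlapped. CDK1 differences were -0.03 ± 0.21, 0.12 ± 0.23 and 0.45 ± 0.23 (limma adjusted p = 0.956, 0.831 and 0.257).

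CDC20, which activates the anaphase-promoting complex so that sister chromatids part, had signals of 2779, 2788, 1914, 3263 and 2758 in sorafenib-resistant 786-O tumours, against 2005, 2791, 2802, 2961 and 2621 in untreated ones. It was 2588, 2025, 2893 and 2365 in sunitinib-resistant tumours, against 2263, 2651, 1814, 2788 and 2328 in their untreated tumours, and 1401, 1262, 1586, 1390.4 and 1224 in resistant A498 tumours, against 1226, 1259, 1343 and 1083 in untreated A498 tumours. The groups overlapped each time, with differences of 0.03 ± 0.14, 0.06 ± 0.14 and 0.16 ± 0.14 (limma adjusted p = 0.928, 0.870 and 0.579). UBE2C, the ubiquitin-conjugating enzyme of the same complex, rose in the 786-O sorafenib arm. It had signals of 5677, 6220.2, 5534, 7221 and 6603 in resistant tumours, against 4533, 5565, 5271, 5316 and 4542 in untreated ones, and 1 resistant tumour lay just inside the untreated range. The UBE2C difference was 0.31 ± 0.11, or 1.24-fold (limma adjusted p = 0.0497). In the sunitinib arm UBE2C differed by 0.23 ± 0.11 (adjusted p = 0.261) and in A498 by 0.08 ± 0.11 (adjusted p = 0.737).

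AURKB, the kinase of the chromosomal passenger complex that corrects spindle attachment, was the other gene that rose in the 786-O sorafenib arm. It had signals of 552, 664, 535, 774 and 745 in resistant tumours, against 471, 485, 465, 606 and 389.7 in untreated ones, with 1 untreated tumour inside the resistant range. The AURKB difference was 0.42 ± 0.14, or 1.34-fold (limma adjusted p = 0.0409). In the sunitinib arm AURKB was 590.1, 549, 528 and 548 in resistant tumours, all above the untreated tumours at 378, 443, 450.5, 443 and 518, where 4.12% of all genes tested lay wholly above, and its difference of 0.31 ± 0.15 did not pass (adjusted p = 0.264). In A498 the difference was 0.02 ± 0.15 (adjusted p = 0.964). The rises of AURKB and UBE2C sat close to the threshold and were lost under 11 and 16 of 24 alternatives. The AURKB call was lost without untreated replicate 1, 2, 3 or 5 or resistant replicate 2, 4 or 5 (limma adjusted p = 0.0623 to 0.1185), and the UBE2C call without untreated replicate 1, 3, 4 or 5 or resistant replicate 2, 4 or 5 (adjusted p = 0.059 to 0.1416). Without the 2 arrays of highest ACTB 3′ minus 5′ difference, a sign of RNA quality, the adjusted p was 0.261 for AURKB and 0.271 for UBE2C, and with all probe sets of AURKB averaged it was 0.473.

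KIF20A, a kinesin that carries the passenger complex to the midzone for cytokinesis, fell in the 786-O sorafenib arm. It had signals of 1405, 1912, 1359.8, 2108 and 1638 in resistant tumours, against 2113, 2798, 2296, 2636 and 2051 in untreated ones, and only the highest resistant tumour reached into the untreated range. The KIF20A difference was -0.50 ± 0.12, a level 0.705 times that of the untreated tumours (limma adjusted p = 0.00540), and it kept its call under all 24 alternatives run, with an adjusted p of at most 0.0474. Under sunitinib KIF20A was 2031, 1579, 1572 and 1683 in resistant tumours, against 2078, 2184, 1911, 2345 and 1727 in untreated ones, a difference of -0.25 ± 0.13 (adjusted p = 0.294). In A498 it was 1264, 1331, 1502, 1465 and 1156 in resistant tumours, against 1352, 1252, 1334 and 1160 in untreated tumours, a difference of 0.07 ± 0.13 (adjusted p = 0.810). The group means of AURKB and KIF20A, whose products act together in cytokinesis, differed in opposite directions, though the AURKB rise sat close to the threshold. Among the resistant tumours both genes were lowest in replicate 3 and highest in replicate 4. The order is not particular to this pair: 34 of the 38 genes lay below the group mean in replicate 3, and 30 above it in replicate 4.

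Of the remaining mitotic genes none was called in any arm. The kinases AURKA, PLK1 and TTK, the checkpoint genes BUB1 and BUB1B and the survivin gene BIRC5 lay between -0.08 and 0.07 in the 786-O sorafenib arm, between -0.09 and 0.10 in the sunitinib arm and between 0.03 and 0.30 in A498. The spindle genes KIF11, KIF23, TPX2 and CENPF lay between 0.02 and 0.07, between -0.14 and 0.16, and between 0.09 and 0.30. BIRC5 came nearest to a call in A498 (0.30 ± 0.15, limma adjusted p = 0.268).

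Whether an arm's response differed from that of another was tested directly. For 0 of the 38 genes did the sorafenib difference in 786-O depart from the sunitinib difference (0.949% of all genes tested did), and for 0 did the A498 difference depart from the 786-O difference under sorafenib (5.19% of all genes did). At an unadjusted p under 0.05 limma gave 2 and 3 genes, where it gave 14.4% and 20.6% of all genes. CCNE1 came nearest between the drugs (-0.52 ± 0.21, adjusted p = 0.237). Between the lines KIF20A came nearest (0.58 ± 0.18, limma adjusted p = 0.0565) and passed under 10 alternatives, with an adjusted p down to 0.0190, among them the fits without untreated 786-O replicate 5, without resistant 786-O replicate 2 or 4 and without resistant A498 replicate 5.

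Several markers usually assigned to cell types other than the tumour cells were lower in sorafenib-resistant than in untreated 786-O tumours. Of 14 fibroblast and pericyte markers tested 7 fell and 0 rose, and their summed signal was 4143 to 6894 in resistant tumours, against 8953 to 12440 in untreated tumours. Skeletal muscle markers summed to 616 to 1177 in resistant tumours, against 825 to 2437 in untreated tumours, with 2 of 7 called lower, and myeloid markers to 815 to 1010, against 997 to 1414 in untreated tumours, with 2 of 8 called lower. Over all genes tested 9.18% were called lower. Not all markers fell: COL6A3 (1.25), FAP (0.46), CSF1R (0.69) and FCER1G (0.15) lay above zero without a call. Of the 6 endothelial markers tested only TIE1 was called, and it fell (-1.70 ± 0.40). In A498 the fibroblast sum was 12172 to 28875 in resistant tumours, against 8283 to 18014 in untreated tumours, with 1 of 14 called higher. COL1A1, whose highest group mean was 15371, carried much of the A498 sum. Untreated A498 had 31.8-fold the COL1A1 level of untreated 786-O tumours of the sunitinib arm. COL5A1 was also called higher there, and COL1A2, COL3A1, FAP and RGS5 lower, so the sum need not follow these cells. The part of these cells in the values of the cell cycle genes was not tested.

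In A498, where no single gene was called, mitotic and replication genes lay on different sides of zero. All 15 mitotic genes lay above zero, while 1 of the 9 licensing genes and 1 of the 4 DNA synthesis genes did. The mean of the mitotic genes minus the mean of the 13 replication and DNA synthesis genes was -0.55 ± 0.05 log2 units in resistant A498 tumours and -0.76 ± 0.07 in untreated ones (SD, n = 5 and 4). The resistant tumours ran from -0.59 to -0.48 and the untreated ones from -0.86 to -0.69, without overlap. The groups overlapped in 786-O, with -0.33 ± 0.28 in sorafenib-resistant and -0.35 ± 0.12 in untreated tumours (SD, n = 5 each), and -0.38 ± 0.08 in sunitinib-resistant and -0.39 ± 0.06 in untreated tumours (SD, n = 4 and 5). Within the sorafenib-resistant 786-O group replicates 4 and 5 stood at -0.04 and -0.02 and the other 3 between -0.62 and -0.43. Genes outside the list pointed the same way in A498 with overlap: for 70 other mitotic minus 48 other replication genes the value was 0.36 ± 0.06 in resistant and 0.25 ± 0.07 in untreated A498 tumours. They were measured on the same arrays as the list. In 786-O their value was 0.53 ± 0.19 in sorafenib-resistant and 0.58 ± 0.06 in untreated tumours. Under sunitinib it was 0.47 ± 0.08 in resistant and 0.53 ± 0.07 in untreated 786-O tumours (SD). The gap was looked at after the values were known, and it carries no test.

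**Figure D3:**
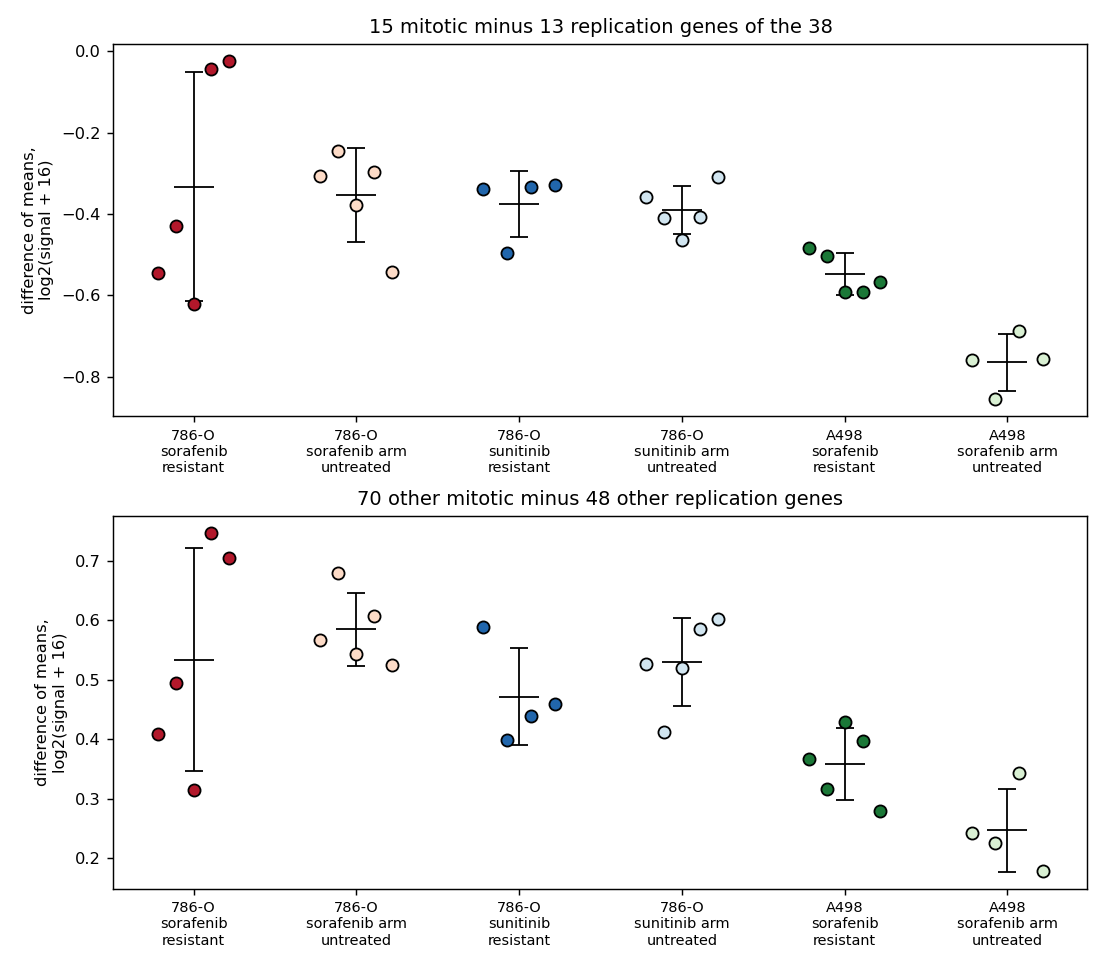
Mean of mitotic genes minus mean of replication genes in each tumour (y axes, log2(signal + 16); 1 point per tumour; bars, group mean and SD), for the 38 genes (top) and for 118 other genes of the same processes (bottom). In the top panel resistant A498 tumours lie between -0.59 and -0.48 and untreated A498 tumours between -0.86 and -0.69, while in 786-O the groups overlap.

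Genes around the core cycle were also compared, first in the 786-O sorafenib arm. Of 38 G1 regulators and cell cycle inhibitors tested, 4 rose and 3 fell (18.4%, beside 15.2% of all genes). CCND1, the cyclin that starts G1 with CDK4 and CDK6, averaged 13457 ± 1062 in sorafenib-resistant tumours and 6824 ± 960 in untreated tumours (SD, n = 5 each), without overlap (0.99 ± 0.12, limma adjusted p = 2.53e-06). The atypical repressor E2F7 (0.99 ± 0.19) and the CDK4 and CDK6 inhibitor CDKN2D (0.70 ± 0.13) also rose. Of the inhibitors of cyclin E and A kinases, CDKN1A (-0.41 ± 0.13) and CDKN1B (-0.39 ± 0.11) fell, as did TFDP2, a partner of E2F (-0.55 ± 0.13). CDK4 (-0.08 ± 0.10), CDK6 (-0.44 ± 0.16, adjusted p = 0.0602) and RB1 (0.03 ± 0.12) were not called. Of 48 other replication genes 2 fell (ORC3, an origin recognition subunit, -0.42 ± 0.12, and TIPIN, of the fork protection complex, -0.38 ± 0.08) and of 70 other mitotic genes 0 were called, while 4 of the 70 had an unadjusted p under 0.05 in limma. Of 24 checkpoint and repair genes TOPBP1 rose (0.26 ± 0.09).

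In the 786-O sunitinib arm CCND1 averaged 9966 ± 1565 in resistant tumours and 6830 ± 825 in untreated tumours (SD, n = 4 and 5), a rise of 0.54 ± 0.13 (limma adjusted p = 0.0128), and TFDP2 fell (-0.55 ± 0.14). CDKN1A lay above zero here without overlap and without a call (0.33 ± 0.14, adjusted p = 0.191), and CDK4, CDK6, CDKN1B and RB1 lay between -0.22 and 0.20. The checkpoint kinase CHEK1 (-0.38 ± 0.10) and the nuclease subunit EME1 (-0.54 ± 0.16) fell, 2 of 24 repair genes, while 0 of 118 other replication and mitotic genes were called (7 of them had an unadjusted p under 0.05 in limma), where 5.06% of all genes tested were called.

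In A498 4 of 70 other mitotic genes rose and 0 fell (5.71%, beside 6.34% of all genes called): KIFC1, a spindle motor (1.15 ± 0.33), NCAPD2, of condensin (0.44 ± 0.13), CEP55, of the midbody (0.43 ± 0.13), and PTTG1, the securin (0.39 ± 0.12). KIFC1 averaged 242 ± 115 in resistant A498 tumours and 106 ± 69.1 in untreated ones (SD, n = 5 and 4). Of the G1 regulators E2F7 (0.91 ± 0.20), the stress gene GADD45A (0.89 ± 0.24) and CDKN2D (0.57 ± 0.14) rose, and E2F8 (-0.83 ± 0.23) and SKP2, the ubiquitin ligase subunit that removes CDKN1B (-0.55 ± 0.15), fell. RAD51AP1, of homologous recombination, rose (0.81 ± 0.20). CCND1 differed by 0.23 ± 0.13 (limma adjusted p = 0.291), and CDKN1A, CDKN1B, CDK4, CDK6 and RB1 lay between -0.13 and 0.22.

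The untreated 786-O tumours of the sorafenib arm had higher values of nearly the whole list than those of the sunitinib arm, by amounts that did not pass the test. Of the 38 genes 36 lay above zero, with a median of 0.20 beside 0.03 over all genes tested. By limma 0 genes were called, where 0.275% of all genes were, and 9 had an unadjusted p under 0.05 (13.2% of all genes). MKI67, whose values are given above, was higher in all 5 tumours of the sorafenib arm than in any of the sunitinib arm (0.64 ± 0.18, a 1.56-fold difference, limma adjusted p = 0.118). The 3 other MKI67 probe sets gave 0.14 ± 0.14, 0.46 ± 0.17 and 0.21 ± 0.17. TPX2, which builds spindle microtubules, had signals of 2668, 3500, 3328, 3748 and 2689 in the sorafenib arm, against 2189, 2538, 2198, 2540.5 and 2509 in the sunitinib arm, without overlap (0.40 ± 0.12, adjusted p = 0.143). TYMS, at 9785, 11542, 10324, 11403 and 12837 in the sorafenib arm, against 9145, 8663, 8861, 9289 and 8929.5 in the sunitinib arm, did not overlap either (0.31 ± 0.10, adjusted p = 0.182). Over all genes tested 1.83% lay without overlap in this direction. MCM5 (-0.05 ± 0.17) and MCM7 (-0.03 ± 0.13) were the 2 below zero.

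An offset of similar size stood between the resistant groups. The mean over the list was 0.21 higher in sorafenib-resistant than in sunitinib-resistant 786-O tumours, with 33 of 38 group means higher, and 0.22 higher between the untreated sets. The title codes differ between these arms, and arm and code cannot be told apart. Fibroblast marker sums were 8953 to 12440 in untreated tumours of the sorafenib arm, against 5122 to 9827 in those of the sunitinib arm, and muscle marker sums 825 to 2437 in the sorafenib arm, against 548 to 1428 in the sunitinib arm. Between the resistant groups these sums ran the other way by their medians. Fibroblast sums were 4143 to 6894 (median 5072) under sorafenib, against 4630 to 12087 (median 6270) under sunitinib. Muscle sums were 616 to 1177 (median 742) under sorafenib, against 1081 to 2207 (median 1821) under sunitinib. The ACTB 3′ minus 5′ difference averaged 0.45 in untreated tumours of the sorafenib arm and 0.23 in those of the sunitinib arm (two-sided exact permutation p = 0.127). In the resistant 786-O tumours it averaged 0.45 under sorafenib and 0.24 under sunitinib. Untreated replicate 5 of the sorafenib arm stood at 1.03, and without it, a setting chosen after seeing the data, the untreated average of that arm was 0.31 (exact permutation p = 0.246). Leaving out any other single tumour of the untreated sets gave differences between them of 0.20 to 0.29 (exact permutation p = 0.0556 to 0.341). Their part in the offset was not tested.

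Between the untreated lines the list differed in both directions. A498 was set against the 786-O tumours of the sunitinib arm, which share its title codes: 9 of the 38 genes were higher in A498 and 14 lower, 60.5% of the list, where 58% of all genes tested were called (27.3% higher and 30.6% lower). Without overlap 8 lay above and 9 below (23.1% and 24.4% of all genes). The median over the list was -0.22, beside -0.06 over all genes. By role 3 of 9 licensing genes were higher and 0 lower, with a median of 0.02. Of the 7 cyclins and their kinases 3 were higher and 3 lower, of the 4 DNA synthesis genes 1 higher and 1 lower, and of the 2 genes of the anaphase-promoting complex 1 higher and 1 lower. Of 7 mitotic kinase and checkpoint genes 1 was higher and 3 lower, 0 of 6 spindle genes were higher and 4 lower, and both transcription factors were lower.

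**Figure D4:**
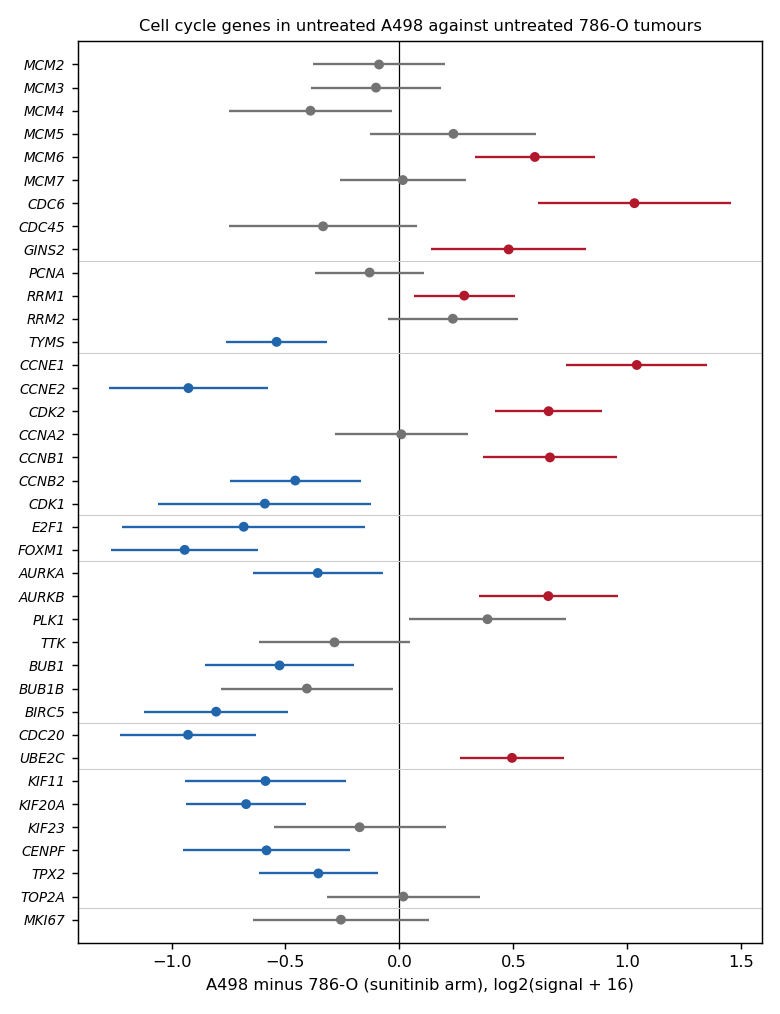
Difference of each cell cycle gene between untreated A498 tumours (n = 4) and untreated 786-O tumours of the sunitinib arm (n = 5) (x axis, log2(signal + 16); points, limma estimates; bars, 95% intervals; red, higher in A498; blue, lower; grey, not called; genes from top to bottom by role). CCNE1 (1.04) and CDC6 (1.03) lie furthest towards A498, and FOXM1 (-0.94), CDC20 (-0.93) and CCNE2 (-0.93) furthest towards 786-O, while 5 of the 9 licensing genes lie above zero and 4 below.

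The genes higher in A498 were of several phases, with CCNE1 and CDC6 furthest from zero. CCNE1 had signals of 436, 552, 699 and 489 in untreated A498 tumours, against 298, 205, 290.01, 268 and 212 in untreated 786-O tumours (1.04 ± 0.15, a 2.06-fold difference, limma adjusted p = 1.65e-06). CDC6 stood at 656, 892, 926 and 703 in A498, against 199, 510.2, 426, 416 and 414 in 786-O, where the first 786-O tumour was far below the other 4 (1.03 ± 0.21). CDK2, the kinase of cyclins E and A, stood at 2359.8, 2287, 3210.1 and 2248 in A498, against 1273, 1582, 1673, 1570.3 and 1866 in 786-O (0.65 ± 0.11). None of these 3 genes overlapped between the lines. CCNB1 was 4819, 4795, 4916 and 4244 in A498, against 2657, 2565, 2891, 3541 and 3247 in 786-O (0.66 ± 0.14), and AURKB 638, 756, 819 and 636 in A498, against 378, 443, 450.5, 443 and 518 in 786-O (0.65 ± 0.15), both without overlap. MCM6 (0.59 ± 0.13), UBE2C (0.49 ± 0.11), GINS2 (0.48 ± 0.17) and RRM1 (0.28 ± 0.11) completed the genes higher in A498. When all probe sets of a gene were averaged, CCNE1 differed by 0.43 (adjusted p = 0.0579) and GINS2 by -0.017 (adjusted p = 0.942), so the direction of GINS2 rests on its probe set. Against the untreated 786-O tumours of the sorafenib arm RRM1 differed by 0.03 (adjusted p = 0.850) and GINS2 by 0.18 (adjusted p = 0.354), without a call.

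Of the genes lower in A498, FOXM1, CDC20 and CCNE2 lay furthest from zero. FOXM1 had signals of 477, 454, 697 and 465.7 in untreated A498 tumours, against 904, 1137, 789, 1142 and 1104 in untreated 786-O tumours (-0.94 ± 0.16, limma adjusted p = 1.25e-05). CDC20 stood at 1226, 1259, 1343 and 1083 in A498, against 2263, 2651, 1814, 2788 and 2328 in 786-O (-0.93 ± 0.14), and CCNE2, the second cyclin E gene, at 595, 716, 888 and 596 in A498, against 1181, 1264, 1191, 1619.5 and 1414 in 786-O (-0.93 ± 0.17). A498 lay below 786-O in every tumour for all 3 genes, so CCNE1 and CCNE2 went opposite ways between the lines. BIRC5 stood at 1819, 2122, 2437 and 1948 in A498, against 3021, 3377, 3424, 4241 and 4226 in 786-O (-0.80 ± 0.15), again without overlap. With probe sets open to cross-hybridisation left out BIRC5 differed by -0.26 (limma adjusted p = 0.132), and AURKA by -0.29 (adjusted p = 0.261), without a call. FOXM1, CDC20, CENPF, TPX2 and RRM1 dropped out of that setting, so it could not test their calls. The FOXM1 and CDC20 differences rest on 1 such probe set each. E2F1 differed by -0.68 ± 0.26 with overlapping groups. KIF20A (-0.67 ± 0.13), KIF11 (-0.59 ± 0.17), CDK1 (-0.59 ± 0.23), CENPF (-0.58 ± 0.18), TYMS (-0.54 ± 0.11), BUB1 (-0.53 ± 0.16), CCNB2 (-0.46 ± 0.14), AURKA (-0.36 ± 0.14) and TPX2 (-0.36 ± 0.13) were also lower in A498. With all probe sets of a gene averaged, BUB1, CCNB2, CDK1, CENPF and TYMS lost their calls (limma adjusted p = 0.0625 to 0.815). The GAPDH 3′ minus 5′ difference, a sign of RNA quality, averaged -0.088 in untreated A498 and 0.012 in these 786-O tumours (two-sided exact permutation p = 0.0556). With it as a covariate 19 of the 38 genes were called, and AURKA, CDK1, E2F1 and RRM1 lost their calls (limma adjusted p = 0.0571 to 0.105). The calls of 6 of the 23 genes higher or lower were also lost when single tumours were left out: RRM1 (adjusted p up to 0.101 without 786-O replicate 1, 2 or 3 or A498 replicate 2 or 3), AURKA (up to 0.0962 without 786-O replicate 2 or 5 or A498 replicate 2 or 4), E2F1 (up to 0.1416 without 786-O replicate 2 or A498 replicate 3 or 4), CDK1 (up to 0.0968 without 786-O replicate 4 or A498 replicate 1 or 4), GINS2 (up to 0.0730 without A498 replicate 2 or 3) and TPX2 (0.0896 without A498 replicate 1).

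Of the genes not called between the lines, MKI67 (-0.26 ± 0.19, limma adjusted p = 0.252), PCNA (-0.13 ± 0.12), MCM2 (-0.09 ± 0.14) and TOP2A (0.02 ± 0.16) lay near zero, and PLK1 came nearest to the threshold (0.39 ± 0.17, adjusted p = 0.0506, without overlap). PLK1 passed under 7 alternatives (adjusted p down to 0.0105), the licensing gene MCM4, at -0.39, under 8 (down to 0.000180) and the checkpoint gene BUB1B, at -0.41, under 7 (down to 0.00119). MKI67 depended on the probe set and on the 786-O set. Of its 3 other probe sets 2 were called lower (-0.59 ± 0.15 and -0.66 ± 0.18) and the third was not (-0.39 ± 0.18, adjusted p = 0.0763), and against the untreated 786-O tumours of the sorafenib arm MKI67 differed by -0.90 (adjusted p = 0.0002055). Against that set 7 genes were higher and 21 lower, and the median over the list was -0.46. Skeletal muscle markers summed to 5655 to 11249 in untreated A498 tumours, against 548 to 1428 in the 786-O tumours, of which NEB alone averaged 7336 ± 2363 in A498 and 59.9 ± 22.04 in 786-O. Of the 7 muscle markers tested NEB and DES were higher in A498 and TTN lower, and 5 lay below zero, with a median of -0.15. Myeloid markers summed to 1893 to 2309 in A498, against 602 to 1196 in 786-O, of which S100A9 averaged 958 ± 174 in A498 and 31.02 ± 18.5 in 786-O. Of the 8 myeloid markers tested S100A9, ITGAM and FCER1G were higher in A498 and CSF1R lower, with a median of 0.32. The part of such cells in the line differences was not tested.

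Within a group, many tumours had most of the list on 1 side of the group mean. In 14 of the 28 tumours at least 30 of the 38 genes lay on the same side of their own group's mean. The first untreated 786-O tumour of the sorafenib arm had 37 of 38 genes below its group mean, and the second had 35 above. In the resistant A498 group replicates 3 and 4 had 36 and 37 genes above, and replicates 1 and 2 had 36 and 34 below. Over all genes tested the share above the group mean lay between 43.6% and 60.9% in every tumour. The 118 other replication and mitotic genes ran alongside, with 9.32% above the group mean in that first untreated tumour and 88.1% in the third resistant A498 tumour. These genes share their arrays with the list.

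**Figure D5:**
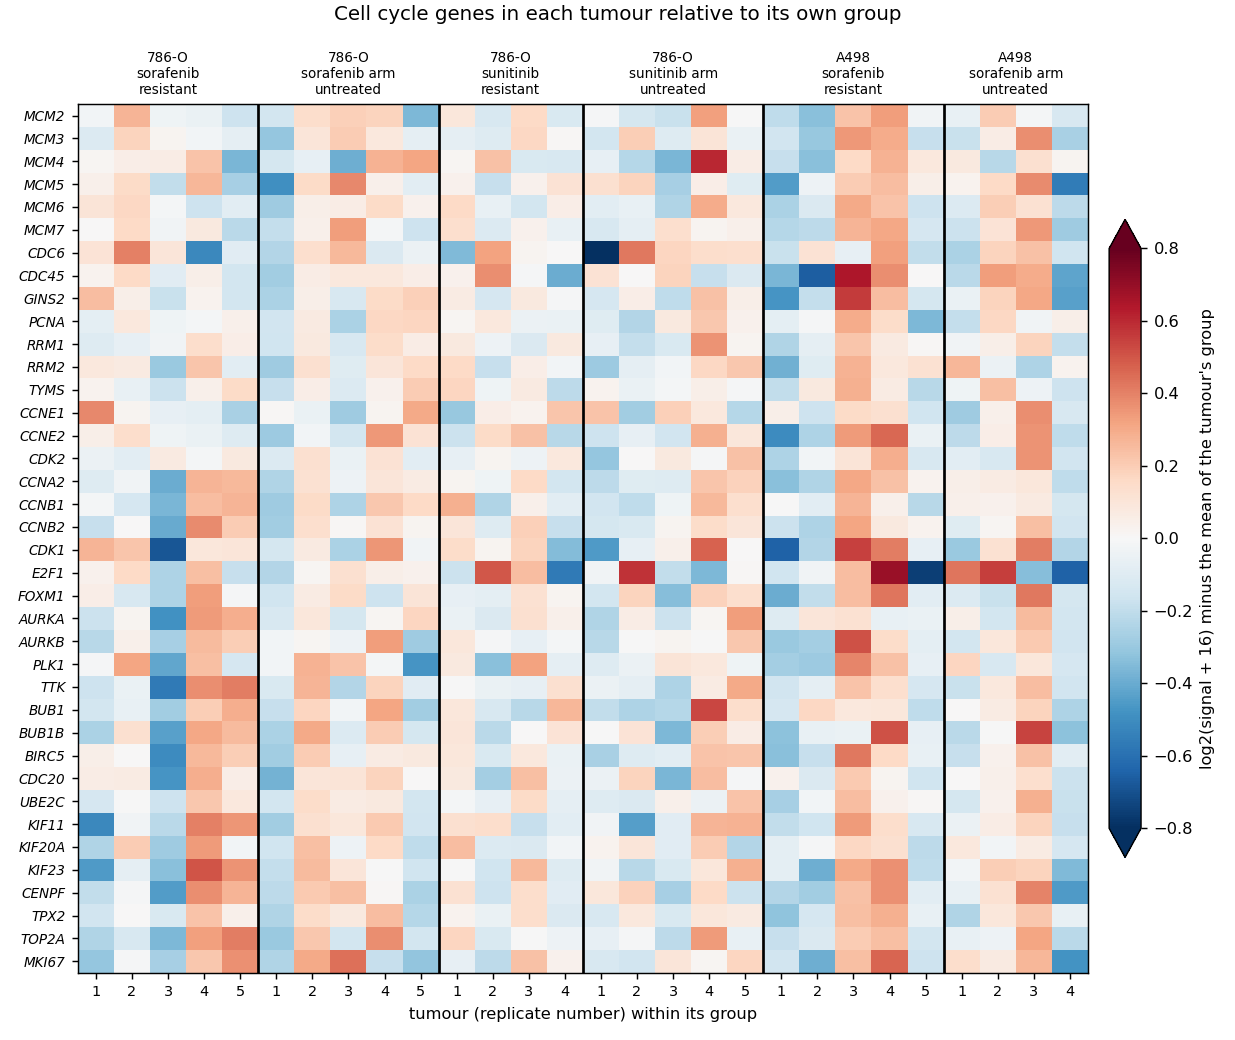
Each cell cycle gene (rows, by role) in each of the 28 tumours (columns, by group and replicate number) as log2(signal + 16) minus the mean of the tumour's own group (red, above; blue, below; values past 0.8 either way are drawn at the end of the scale). Whole columns are red or blue, such as resistant A498 replicates 3 and 4 (36 and 37 of 38 genes above) and untreated 786-O replicate 1 of the sorafenib arm (37 below).

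In the third sorafenib-resistant 786-O tumour 34 genes lay below the group mean, and its mitotic genes were lower by 0.36 on average, while its replication genes were 0.07 below. Replicate 4 had 30 genes above, with its mitotic genes 0.31 higher and its replication genes 0.02 higher. Over the 5 tumours of this group the SD was 0.27 for the mean of the mitotic genes and 0.09 for the mean of the replication genes. The sunitinib-resistant tumours were the most alike, with 10 to 26 genes above the group mean and a median SD over the list of 0.15, against 0.20 in their untreated tumours. In the resistant A498 tumours that median was 0.26, against 0.21 in untreated A498 tumours.

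By gene, the spread within groups was largest for E2F1 (pooled SD 0.40), CDK1 (0.35), CDC6 (0.32) and CDC45 (0.31) and smallest for TYMS (0.15), RRM1 (0.15) and UBE2C (0.16). The median pooled SD of the list was 0.23, beside 0.24 over all genes tested and 0.17 over the 2924 genes whose mean level lay between the quartiles of the list. E2F1 was also the dimmest of the list, at a mean log2 level of 8.33, and TYMS the brightest, at 13.09. Signals of different probe sets do not rank the amounts of their transcripts.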

How the data were processed

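RNA of 28 frozen xenograft tumours was measured on HG-U133 Plus 2.0 arrays with 54675 probe sets. The deposited values are linear intensity signals from the authors' table; RMA and MAS5 are listed, with neither role nor version, per the submitters' processing notes, and the equal trimmed means of the arrays were checked on the values. Every column was mapped to a sample by its own accession, and columns of per-sample values not mapped numbered 0. Probe sets were named through the platform annotation and RefSeq: 41091 had 1 gene symbol, 1801 several and 11721 none, and 62 were controls. For each of 19775 genes the single-symbol probe set of highest mean over all arrays was used. Signals became log2(signal + 16). Genes above a signal of 89.4, the median of all values, on at least 4 arrays were tested (13808, with 5967 left out).

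One limma fit (R 4.3.3, limma 3.58.1) held all 28 arrays in 6 groups without covariates, with 22 residual degrees of freedom before the variance was moderated. The p-values were adjusted by Benjamini-Hochberg over all genes tested, and a gene was called at an adjusted p under 0.05. Intervals are 95%. RNA quality was compared by two-sided exact permutation tests. Figures were drawn with Python 3.11.15, pandas 2.3.3 and matplotlib 3.10.9. The fit was tested on simulated data. The number of arrays limits the precision. Correlations between arrays of 1 group across probe sets ran from 0.949 to 0.971.

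The members, gene lists and comparisons were chosen with earlier results of these data known. Given tumour by tumour were MKI67, TOP2A, PCNA, MCM2, E2F1, CDK1, CCNB1 and CDC20 and up to 5 called rises and 5 called falls of a comparison. From each other list up to 3 called genes in each direction were named. Alternatives changed the pseudocount (1 and 64), the filter, the choice of probe set, the scaling, the variance model, the arrays in the fit and the untreated set.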

Additional observations from a re-analysis of the deposited data

Results flagged for a closer look

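Among the groups of 4 or 5 tumours, 9 of 240 sets of values (3.75%) held 1 tumour far from the others, where chance gives about 5%. On the log2(signal + 16) scale these were the lowest untreated 786-O tumour of the sorafenib arm for MCM6 (11.79) and for CDC45 (8.757), the lowest untreated 786-O tumour of the sunitinib arm for CDC6 (7.75), and the lowest sorafenib-resistant 786-O tumour for CDK1 (11.97). In untreated A498 the highest tumour stood apart for CDK2 (11.66) and FOXM1 (9.478), and the lowest for CCNA2 (10.56) and CCNB1 (12.06). The lowest sunitinib-resistant 786-O tumour stood apart in the mean of mitotic minus replication genes (-0.4964).

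Outside the 38 genes, 5 genes of the surrounding lists responded differently in A498 and in 786-O under sorafenib, by limma's test of the difference between the 2 responses. ORC3 had a difference of 0.8168 between the lines (adjusted p = 0.00727), with 0.39 in A498 and -0.42 in 786-O. UHRF1, which keeps DNA methylation through replication, had -0.6198 (adjusted p = 0.0254), with -0.38 in A498 and 0.24 in 786-O. NCAPD2 had 0.5835 (adjusted p = 0.0489), with 0.44 in A498 and -0.15 in 786-O. CCND1 had -0.7515 (adjusted p = 0.0118), with 0.23 in A498 and 0.99 in 786-O, and CCND3, another D-type cyclin, -0.6638 (adjusted p = 0.0371), with -0.44 in A498 and 0.22 in 786-O.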

How the results depend on the processing

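The number of cell cycle genes called stayed at 0 under every alternative run between the untreated 786-O sets and between the 2 drugs. In the 786-O sorafenib arm it was 3, but 2 under 6 alternatives (probe sets open to cross-hybridisation left out, median centring, quantile normalization, array weights, only the arrays of the comparison and the GAPDH covariate), 1 with no filter on dim genes, with probe sets of a gene averaged or without the 2 arrays of highest ACTB difference, and 5 with both untreated 786-O sets pooled. Pooling mixes the offset between the untreated sets into this comparison. The number called was 1 in place of 0 with the mean of probe sets in the sunitinib arm (CDK2), and in A498 with the mean of probe sets (RRM2) or array weights (FOXM1). The comparison of A498 with 786-O responses gave 1 (KIF20A) with a pseudocount of 64, a filter at the 75th percentile, quantile normalization, array weights, trended robust variance or without the 2 ACTB arrays. Between the untreated lines 15 of 29 genes were called when probe sets open to cross-hybridisation were left out, which leaves fewer genes, and GINS2 changed sign there (-0.44) and with the mean of probe sets (-0.017). The cause of the other shifts was not tested. Leaving out 1 tumour at a time gave 1 to 4 calls in the 786-O sorafenib arm, 0 to 0 in the sunitinib arm, in A498, between the untreated 786-O sets and between the drugs, 20 to 24 between the untreated lines and 0 to 1 between the lines' responses. Without untreated replicate 1 or 5 or resistant replicate 2, 4 or 5 the 786-O sorafenib count was 1. Medians over the list ranged from -0.07 to 0.11, -0.08 to 0.09 and -0.02 to 0.13 in the 3 arms, from 0.17 to 0.26 between the untreated 786-O sets and from -0.46 to -0.12 between the lines. No paired analysis was possible because the labels number no replicates, and the numbers used here follow accession order. All 38 genes lay above the limit on every array, but the limit is the median of all values and does not measure background. E2F1 came nearest to it, with a lowest log2 level of 6.92 beside a limit of 6.72.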

Other observations

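The surrounding gene lists also differed between the untreated lines. CDKN1C, an inhibitor of cyclin-dependent kinases, averaged 1251 ± 228 in untreated A498 tumours and 95.4 ± 37.6 in untreated 786-O tumours of the sunitinib arm (SD, n = 4 and 5), a difference of 3.57 ± 0.37 by limma. MYC (1.94 ± 0.19) and TOB1, an antiproliferative gene (1.46 ± 0.19), were also higher in A498, while E2F7 (-1.83 ± 0.20), CDKN1A (-1.59 ± 0.14) and CDKN2D (-1.58 ± 0.14) were lower. In all 4 of 38 G1 regulators and inhibitors were higher and 18 lower. Of 70 other mitotic genes 3 were higher (CENPK, KIF22 and UBE2S) and 36 lower, with KIFC1 (-2.13 ± 0.33), the phosphatase CDC25A (-1.44 ± 0.38) and CEP55 (-1.09 ± 0.13) at the low end. Of 48 other replication genes 10 were higher, led by GINS3 (1.25 ± 0.18), CDT1 (0.90 ± 0.26) and RFC3 (0.87 ± 0.14), and 21 lower, led by DBF4 (-1.08 ± 0.17), POLA2 (-1.07 ± 0.15) and RFC5 (-0.86 ± 0.13). Among 24 checkpoint and repair genes 5 were higher, such as PALB2 (0.81 ± 0.12), and 6 lower, such as RAD51AP1 (-2.18 ± 0.20) and RAD54B (-1.28 ± 0.14). These counts stand beside 27.3% of all genes higher and 30.6% lower.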
